A study of Mus musculus with 6 samples.

Results

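The genes described here encode the cold-inducible RNA-binding proteins Cirbp and Rbm3 and 8 heat-induced chaperones or co-chaperones, Hsph1, Stip1, Hspa8, Hsp90aa1, Hsp90ab1, Dnajb1, Dnaja1 and Hspd1. Every probe set with any of these symbols in the platform annotation was taken, which gave 21 of 45037 probe sets for 9 of the 10 genes. Hsp90ab1 was not analysed here. Of the 21 probe sets, 3 belong to cold-induced and 18 to heat-induced genes. Heat-induced is here the name of the group, which also holds Hspa8, the constitutive cytosolic HSP70. The genes were picked with their differences between the genotypes already known, so their values are a description and carry no test.

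Signals come from 6 Affymetrix Mouse Genome 430 2.0 arrays, 3 from lung cells labelled Bmi1 mutant (genotype Bmi1 null) and 3 from Bmi1 wild-type lung cells. All mice were females aged 4 months on a mixed Bl6/129 background, and live cells negative for the endothelial protein CD31 and the blood cell protein CD45 were sorted after enzymatic digestion of the lung, with no culture before RNA was taken. Whether an array stands for 1 mouse or for pooled mice is not stated, so a p value covers only the spread among the samples hybridised. Nor do the labels say which part of Bmi1 the null allele lacks. Bmi1 itself, a subunit of Polycomb repressive complex 1, was not lower in the mutant-labelled arrays. Its brighter probe set read 1276, 1498 and 1565 in mutant-labelled arrays, against 996, 980 and 1164 in wild type (log2 difference 0.46, limma adjusted p = 0.348), and a probe outside the deleted part checks nothing, so each direction below rests on the labels.

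Cold and heat call up different gene programmes in mammalian cells. Mild cooling raises Cirbp and Rbm3, small RNA-binding proteins with an RNA recognition motif and a glycine-rich tail that bind and stabilise mRNAs. Heat, and other conditions that unfold proteins, activate the transcription factor HSF1, which binds heat shock elements and raises chaperone genes. HSP70 proteins such as Hspa8 fold clients with J-domain partners (Dnajb1, Dnaja1) and exchange factors (Hsph1), Stip1 bridges HSP70 to HSP90, and Hspd1 is the mitochondrial chaperonin.

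Promoter windows of the genes were searched for the letters that these programmes are known by. A single window each of Cirbp, Hsph1, Stip1 and Hspd1 is printed, because these genes span the range of differences. For Cirbp and Hspd1, the window with matches is the one printed. The RefSeq table of build GRCm38.p6 held 12 windows, each from 250 bases before to 50 bases after a start site, for 6 of the genes, namely Cirbp, Hsph1, Stip1, Dnajb1, Dnaja1 and Hspd1. The motifs, on both strands, were the 2-unit heat shock forms GAANNTTC and TTCNNGAA, a 3-unit element in which GAA and TTC alternate with 2 bases between units and which by its make-up holds both 2-unit forms, and TCCCCGCC, described for mouse Cirbp as a mild-cold responsive element. Capitals mark every match, and each line runs 5′ to 3′ on the gene's strand.
Cirbp, chr10:80167589-80167888, plus strand: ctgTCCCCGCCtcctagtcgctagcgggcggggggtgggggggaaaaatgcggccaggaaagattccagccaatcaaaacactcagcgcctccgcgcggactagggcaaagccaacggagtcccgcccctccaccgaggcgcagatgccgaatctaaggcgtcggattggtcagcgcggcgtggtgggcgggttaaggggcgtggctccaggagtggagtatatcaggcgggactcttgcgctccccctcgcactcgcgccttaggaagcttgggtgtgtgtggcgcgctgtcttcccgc
Hsph1, chr5:149636266-149636565, minus strand: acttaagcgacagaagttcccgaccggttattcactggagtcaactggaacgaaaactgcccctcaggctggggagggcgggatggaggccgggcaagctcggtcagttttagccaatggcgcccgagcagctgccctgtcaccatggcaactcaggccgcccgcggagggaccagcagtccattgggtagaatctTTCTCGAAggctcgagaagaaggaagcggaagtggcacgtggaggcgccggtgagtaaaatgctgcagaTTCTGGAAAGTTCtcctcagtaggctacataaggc
Stip1, chr19:7039977-7040276, minus strand: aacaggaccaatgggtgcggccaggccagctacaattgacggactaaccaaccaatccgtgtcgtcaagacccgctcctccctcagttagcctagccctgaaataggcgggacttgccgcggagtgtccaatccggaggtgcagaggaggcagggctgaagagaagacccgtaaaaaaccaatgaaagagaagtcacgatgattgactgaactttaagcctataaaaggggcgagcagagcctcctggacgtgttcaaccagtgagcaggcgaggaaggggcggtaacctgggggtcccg
Hspd1, chr1:55087883-55088182, minus strand: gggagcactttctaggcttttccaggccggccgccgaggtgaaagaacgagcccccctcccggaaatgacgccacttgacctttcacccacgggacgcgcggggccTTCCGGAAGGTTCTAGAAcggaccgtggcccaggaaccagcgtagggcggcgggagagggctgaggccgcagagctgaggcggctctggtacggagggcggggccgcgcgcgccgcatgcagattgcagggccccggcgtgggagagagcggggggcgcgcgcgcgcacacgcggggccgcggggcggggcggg

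The printed Cirbp window holds TCCCCGCC, beginning 247 bases before the start site, and none of the heat shock forms. The printed Hsph1 window holds a 3-unit element that begins 15 bases after the start site and a further TTCNNGAA that begins 54 bases before it. The printed Hspd1 window holds 2 overlapping 3-unit elements, which begin 144 and 139 bases before its start site. The Stip1 window holds none of these letters. Nor do another window of Cirbp and another of Hspd1, which are not printed. Across all 12 windows the 3-unit element occurs in 3, GAANNTTC in 4, TTCNNGAA in 3 and TCCCCGCC in 4, which lie in Cirbp, Dnaja1 and Dnajb1. Some windows of a gene overlap and share a match, as both Hsph1 windows and a pair of Dnaja1 windows do. Counted per gene, the 3-unit element is in 2 of 6, GAANNTTC in 3, TTCNNGAA in 2 and TCCCCGCC in 3, against 0.662%, 9.04%, 9.6% and 6.19% of all 27025 genes in the table. Of the 32851 windows in the table, 0.603% hold the 3-unit element, 7.86% hold GAANNTTC, 8.52% hold TTCNNGAA and 5.38% hold TCCCCGCC. A match is a run of letters and was not measured as a binding site.

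Both cold-inducible genes had higher signals in every mutant-labelled array than in any wild-type array. Cirbp, measured by 1 probe set (1416332_at), read 3510, 3896 and 2872 in mutant-labelled arrays, against 922, 1016 and 898 in wild type. The lowest mutant-labelled array was 2.83 times the highest wild-type array. The means were 3426 ± 518 in mutant-labelled arrays and 945 ± 62.6 in wild type (SD, n = 3 each), a ratio of 3.62 and a log2 difference of 1.83 ± 0.19 (moderated SE). All log2 differences are mutant-labelled minus wild type on log2(signal + 16), and the offset barely touches signals of this size. By size of rise, this was number 145 of the 45037 probe sets.

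Rbm3 moved in the same direction with a smaller difference. Its bright probe set (1422660_at) read 12538, 11620 and 10084 in mutant-labelled arrays, against 7098, 7434 and 7211 in wild type. The means were 11414 ± 1240 in mutant-labelled arrays and 7248 ± 171 in wild type (SD, n = 3 each), a ratio of 1.57 and a log2 difference of 0.65 ± 0.17 (SE). The groups did not overlap, and the spread was wider among the mutant-labelled arrays, with replicate 3 the lowest for Rbm3 and for Cirbp alike. The second probe set (1429169_at) was dim, at 48.1, 97.0 and 97.8 in mutant-labelled arrays and 80.3, 121 and 83.1 in wild type, and the groups overlapped. Both probe sets are also listed for the pseudogene Rbm3-ps, so signal from either locus cannot be told apart.

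**Figure D1:**
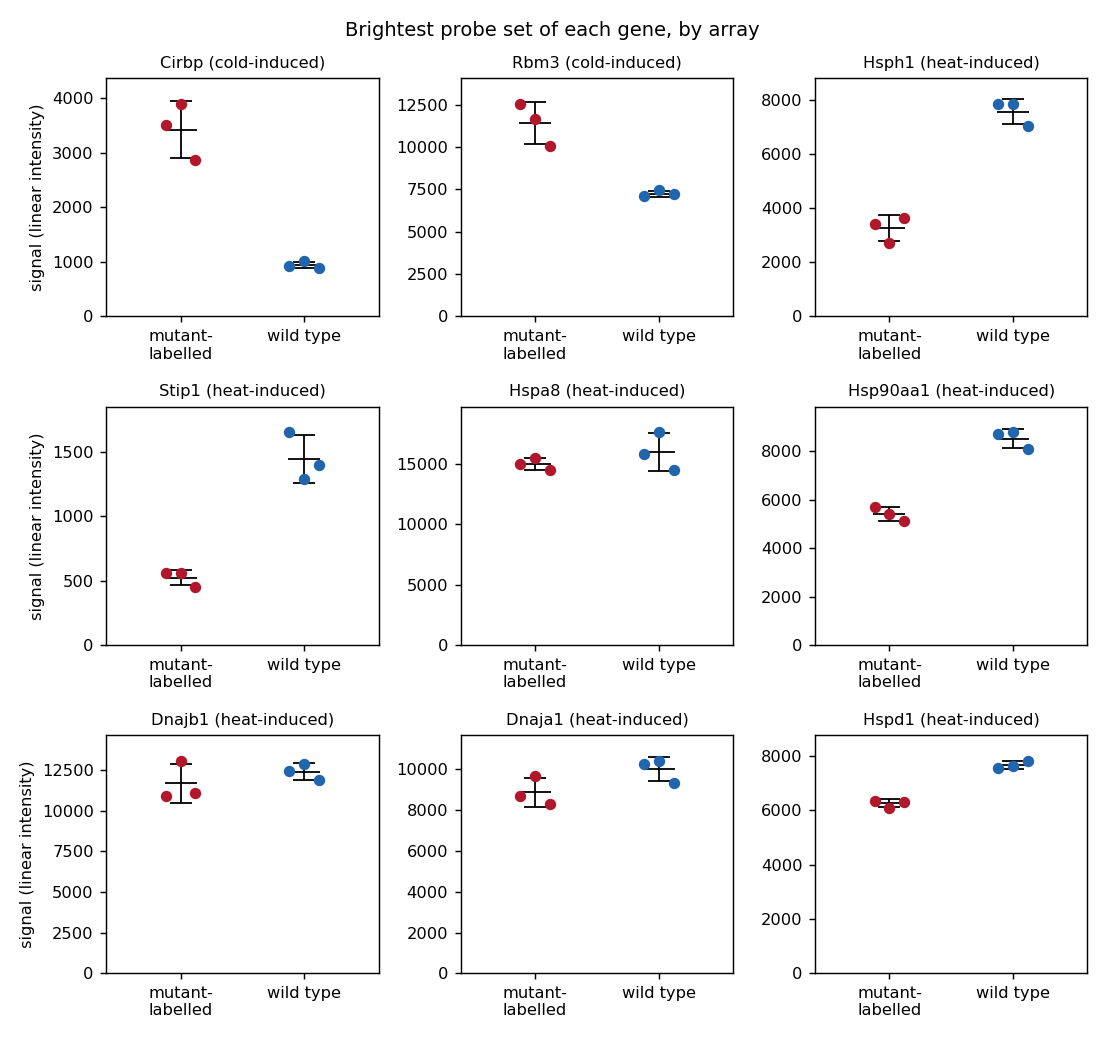
Linear signal of the brightest probe set of each gene on every array, with mutant-labelled arrays on the left and wild type on the right of each panel (points, arrays; bars, mean ± SD, n = 3 each; axes start at 0 and differ between panels). Cirbp and Rbm3 were higher in all 3 mutant-labelled arrays, Hsph1, Stip1, Hsp90aa1 and Hspd1 were lower in all 3, and Hspa8, Dnajb1 and Dnaja1 overlapped.

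Among the heat-induced genes Hsph1 and Stip1 had the largest differences from wild type. Hsph1, a large HSP70-like protein that recharges HSP70 with ATP, is measured by 2 probe sets. The first (1423566_a_at) read 2135, 1927 and 2226 in mutant-labelled arrays, against 5864, 5896 and 5488 in wild type, a log2 difference of -1.45 ± 0.17 (SE). The second (1425993_a_at) read 3426, 2724 and 3624 in mutant-labelled arrays, against 7848, 7835 and 7022 in wild type, a log2 difference of -1.22 ± 0.19 (SE). Neither probe set overlapped between the genotypes, and the lowest wild-type array was 2.47 and 1.94 times the highest mutant-labelled array.

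Stip1, the adaptor that passes clients from HSP70 to HSP90, had a difference of the same size. Its probe set (1415909_at) read 559, 560 and 453 in mutant-labelled arrays, against 1653, 1293 and 1399 in wild type. The means were 524 ± 61.5 in mutant-labelled arrays and 1448 ± 185 in wild type (SD, n = 3 each), wild type being 2.76 times as high, and the log2 difference was -1.44 ± 0.19 (SE). The genotypes did not overlap.

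Hsp90aa1, the stress-inducible cytosolic HSP90, was lower in mutant-labelled arrays on each of its 3 bright probe sets. The brightest (1426645_at) read 5694, 5425 and 5128 in mutant-labelled arrays, against 8722, 8781 and 8080 in wild type, a log2 difference of -0.65 ± 0.16 (SE). The other bright probe sets gave -0.70 (1437497_a_at) and -0.50 (1438902_a_at), and the genotypes overlapped on none of the 3. Its remaining probe sets, 1433251_at and 1441827_x_at, had mean signals of 25.3 and 61.4 over the 6 arrays and overlapped.

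Hspa8, the constitutive cytosolic HSP70, showed no separation of the genotypes. Its brightest probe set (1420622_a_at) read 15014, 15507 and 14472 in mutant-labelled arrays, against 15818, 17618 and 14479 in wild type, a log2 difference of -0.09 ± 0.17 (SE). Its other probe sets gave -0.12 (1420623_x_at), -0.03 (1455789_x_at) and 0.22 (1431182_at), and all 4 overlapped. With median centring the first and the third of these 4 values turned to 0.01 and 0.07, and the fourth turned to -0.04 without mutant replicate 2, so no direction can be given.

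The J-domain proteins, which deliver clients to HSP70, gave mixed readings. For Dnajb1, the HSF1-induced partner, the dimmer probe set (1416756_at) read 747, 663 and 604 in mutant-labelled arrays, against 1307, 1138 and 988 in wild type, a log2 difference of -0.75 ± 0.19 (SE) with no overlap. The brighter one (1416755_at) read 10899, 13069 and 11118 in mutant-labelled arrays, against 12426, 12906 and 11880 in wild type, and overlapped, with a log2 difference of -0.09 ± 0.17 (SE) that turned to 0.01 with median centring. The 2 probe sets thus disagree in size.

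Dnaja1, a farnesylated J-domain protein, had smaller differences on its 3 probe sets. The probe set 1460179_at read 2398, 2466 and 2233 in mutant-labelled arrays, against 3109, 2944 and 3102 in wild type, a log2 difference of -0.37 ± 0.16 (SE) with no overlap. For 1459835_s_at the log2 difference was -0.36 ± 0.20 (SE) and the nearest arrays of the genotypes were 1.01 times apart. The brightest (1416288_at) overlapped at -0.17 ± 0.17 (SE).

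Hspd1, the mitochondrial HSP60, was slightly lower in mutant-labelled arrays. It read 6358, 6095 and 6325 in mutant-labelled arrays, against 7561, 7636 and 7824 in wild type, and the groups did not overlap. The log2 difference was small, at -0.29 ± 0.16 (SE).

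**Figure D2:**
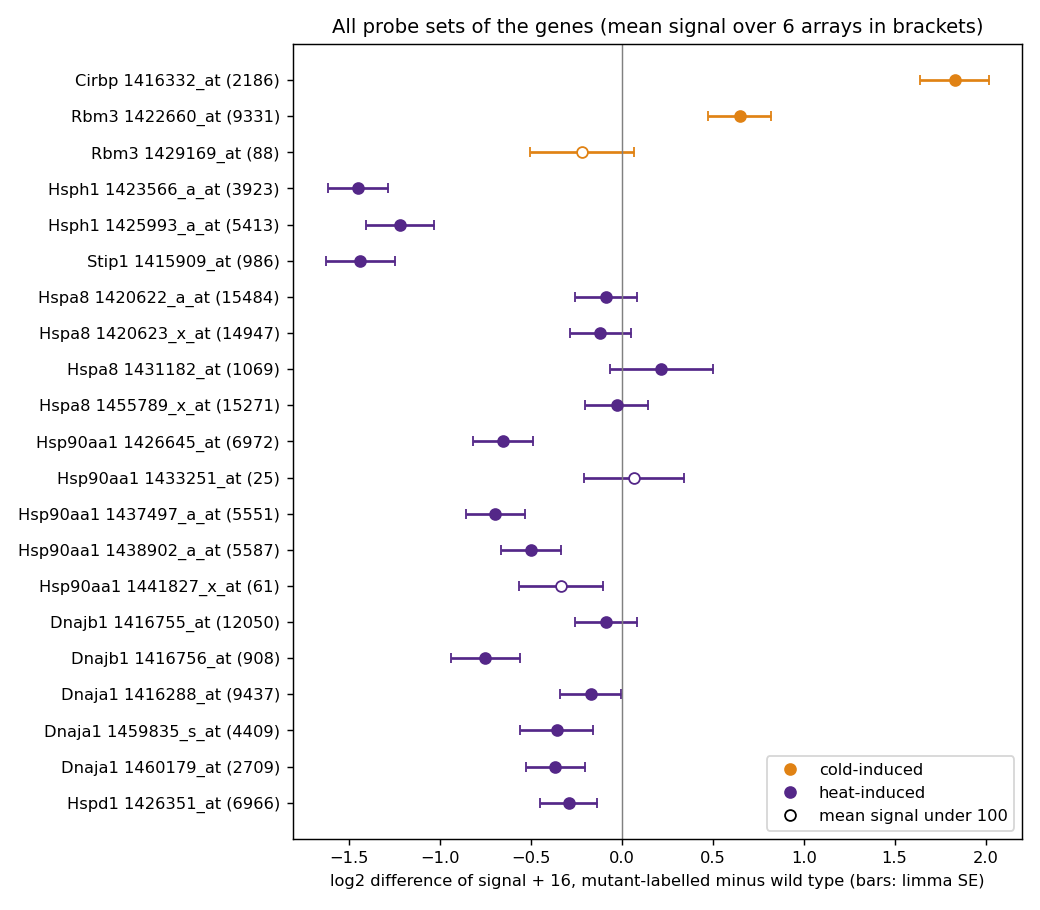
Log2 difference of each of the 21 probe sets, mutant-labelled minus wild type, with the moderated SE from limma (3 arrays per genotype) and the mean signal over 6 arrays in brackets. Filled points have a mean signal of at least 100, and Cirbp and the bright Rbm3 probe set lie furthest to the right, at 1.83 and 0.65, the dim Rbm3 one lies at -0.22, and Hsph1 and Stip1 lie furthest to the left.

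Counted over all probe sets, 2 of the 3 cold-induced ones were higher in mutant-labelled arrays without overlap, where 8.11% of all probe sets were, and 10 of the 18 heat-induced ones were lower without overlap, where 10.8% of all probe sets were. None of the heat-induced probe sets was higher without overlap, and none of the cold-induced ones lower. At a limma adjusted p under 0.05 over all 45037 probe sets, Cirbp was called higher (1 probe set, against a background of 0.187%), and 1423566_a_at of Hsph1 and the probe set of Stip1 were called lower (2 probe sets, against 0.218%). All 3 calls ended with an offset of 1 in place of 16 and under the replicate block, and leaving out any 1 array ended them too, except that of Cirbp without mutant replicate 3. Because the genes were chosen on this contrast, the counts are read no further. The median log2 difference was -0.35 over the 18 heat-induced probe sets, against -0.03 over all probe sets.

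A mean signal of at least 100 over the 6 arrays was reached by 18 of the 21 probe sets, and the 3 below it all overlapped. Of the heat-induced ones, 4 had a mean signal over 10000 and all 4 overlapped, while 10 of the 12 between 100 and 10000 were lower without overlap. Those 4 are probe sets of Hspa8 and Dnajb1 only, and the Hspa8 probe set 1431182_at, with a mean signal of 1069, overlapped as well. Over the whole table, 3.83% of the 313 probe sets above 10000 were lower without overlap, against 13.1% of those of at least 100. The shares higher without overlap were 7.67% above 10000 and 10.2% at 100 or more. Brightness therefore moved with the result, and its part in the difference between Hspa8 or the brighter Dnajb1 probe set and the other chaperones was not tested.

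The balance of cold-induced to heat-induced signal was described for each array. The genes were chosen with their genotype differences known, so a gap between the genotypes in this balance is no separate result. For each array the mean log2 signal of the 7 measured heat-induced genes, each averaged over its probe sets, was subtracted from that of Cirbp and Rbm3. The resulting index was -0.51, -0.32 and -0.47 in mutant-labelled arrays, against -2.17, -1.90 and -2.09 in wild type. The genotypes differed by 1.62 on the log2 scale, where the SD was 0.10 among mutant-labelled and 0.14 among wild-type arrays (n = 3 each). The cold-induced mean was higher by 1.02 and the heat-induced mean lower, at -0.60. The genes contributed unequally to both means. Cirbp had a log2 difference of 1.83, against 0.65 and -0.22 for the Rbm3 probe sets. Hsph1 (-1.45 and -1.22) and Stip1 (-1.44) lay far below Hspd1 (-0.29) and the brightest Hspa8 probe set (-0.09). With the brightest probe set of each gene, which leaves out the dim Rbm3 one, the difference was 1.80. The index has no absolute meaning, since probe sets differ in brightness for reasons other than RNA level, and only its difference between arrays is read. No p is given for a score over chosen genes.

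**Figure D3:**
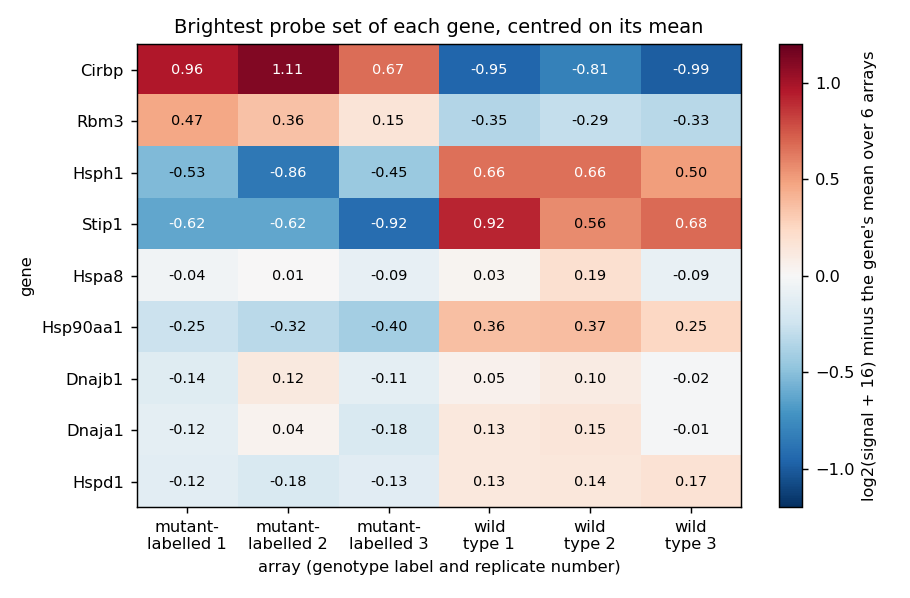
Log2(signal + 16) of the brightest probe set of each gene, minus that gene's mean over the 6 arrays, with the 3 mutant-labelled arrays on the left and the 3 wild-type arrays on the right. Cirbp ranged from 0.67 to 1.11 in mutant-labelled arrays and from -0.99 to -0.81 in wild type, while Hsph1 ranged from -0.86 to -0.45 in mutant-labelled arrays and from 0.50 to 0.66 in wild type.

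The arrays of one genotype differed little in the index but not in the same way for each gene. Among mutant-labelled arrays, replicate 2 had the highest Cirbp (1.11 above the gene's mean) and the lowest Hsph1 (-0.86), and replicate 3 had the lowest Cirbp (0.67) and Rbm3 (0.15) together with the lowest Stip1 (-0.92) and Hsp90aa1 (-0.40). Among wild-type arrays, replicate 1 had the highest Stip1 (0.92) and replicate 3 the lowest Hsph1 (0.50).

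The genes with the profile most like that of Cirbp were Mmp8, Tbx15, Cfb, Sphk1 and Slc40a1. Likeness was the root mean square distance between centred log2 profiles over the 6 arrays, among 11483 genes with a mean signal of at least 100 outside the group, and ran from 0.148 for Mmp8 to 0.220 for Slc40a1. Tbx15 (mean 173 in mutant-labelled arrays and 39.1 in wild type) and Sphk1 (223 in mutant-labelled arrays and 48.6 in wild type) reached that level only through the mutant-labelled arrays. Mmp8 read 691, 616 and 463 in mutant-labelled arrays, against 143, 188 and 176 in wild type. No chaperone or other stress gene of the lists below was among the 5.

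The other chaperone and stress genes were examined in 11 lists, with the brightest single-symbol probe set standing for each gene. None of the 113 measured genes passed a limma adjusted p under 0.05, where 0.555% of all 18193 genes did (0.242% higher and 0.313% lower), and 3 were higher and 10 lower at an unadjusted p under 0.05, where 7.04% of all genes were higher and 6.48% lower. Of the 113, 62 lay below 0, where 49.3% of all genes did, and their median log2 difference was -0.04, against 0.01 over all genes. The test recovers few changes of moderate size at this number of arrays: on simulated arrays it found 2.05% of probe sets changed by a log2 of 1 and 50.7% of those changed by 2. The changed probe sets were drawn at random from all 45037, dim ones included, so these rates are not specific to the list genes.

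HSP90 relatives and co-chaperones leaned lowest among the lists, though no member passed the test. Of 16 measured, 12 lay below 0, where 49.3% of all genes did. In mutant-labelled arrays 7 were lower without overlap, where 10% of all genes were, and 2 were higher without overlap, where 10.4% were. The list's median was -0.30. St13, which like Stip1 binds HSP70 through tetratricopeptide repeats, read 2142, 2385 and 2152 in mutant-labelled arrays, against 3497, 3287 and 3762 in wild type, a log2 difference of -0.65 (adjusted p = 0.177). Ahsa2, a relative of the HSP90 activator Ahsa1, read 768, 637 and 1020 in mutant-labelled arrays, against 1536, 1614 and 1399 in wild type, at -0.92 (adjusted p = 0.157). Neither gene overlapped between the genotypes.

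The strongly heat-inducible HSP70 genes did not share the pattern of Hsph1 and Stip1. Hspa1a read 2827, 4591 and 1814 in mutant-labelled arrays, against 2873, 2569 and 1641 in wild type, with a log2 difference of 0.32 (adjusted p = 0.783). Hspa1b read 5392, 7034 and 2541 in mutant-labelled arrays, against 5598, 4103 and 2817 in wild type. Both overlapped and varied more between arrays of one genotype than Hsph1 did, and both were picked out after their values were seen. Of 13 measured heat-induced HSF1 targets, 8 lay below 0, where 49.3% of all genes did, with a median of -0.25. Without overlap 3 were lower, where 10% of all genes were, and 1 was higher, Dnajb4 at 0.12, where 10.4% were. The 3 lower ones were Ahsa1 (-0.58, adjusted p = 0.265), Chordc1 (-0.61, adjusted p = 0.266) and Fkbp4 (-0.53, adjusted p = 0.271), all 3 HSP90 co-chaperones that the HSP90 list holds too. The HSP70 family list of 12 had a median of -0.04, with the smallest p for the atypical members Hspa12a (-1.37, adjusted p = 0.130) and Hspa14 (-0.59, adjusted p = 0.535).

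In the remaining chaperone families no gene passed the adjusted test. Of 16 J-domain proteins 11 lay below 0 (median -0.13), where 49.3% of all genes did. Without overlap 3 were lower, where 10% of all genes were, and 1 was higher, where 10.4% were. The smallest p belonged to Dnaja4 (-0.50, adjusted p = 0.487), which overlapped, and Dnajc2 (-0.27, adjusted p = 0.597), which did not. Of 9 chaperonin genes 7 lay below 0 (median -0.11), again beside 49.3% of all genes. Without overlap 3 were lower and 0 higher, beside 10% and 10.4% of all genes. Hspe1, the mitochondrial partner of Hspd1, read 5050, 3686 and 3852 in mutant-labelled arrays, against 5945, 6496 and 4963 in wild type, at -0.47 (adjusted p = 0.404), and Cct8, a subunit of the cytosolic chaperonin, gave -0.31 (adjusted p = 0.492). Small heat shock proteins had a median of -0.09, and the muscle-enriched members Hspb7 (2.08, adjusted p = 0.163) and Hspb6 (0.85, adjusted p = 0.394) stood above the rest. Exchange factors of HSP70 had a median of 0.09, with Bag2 at 0.60 (adjusted p = 0.395) and Grpel1 at -0.30 (adjusted p = 0.559).

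Cold shock domain proteins, a family distinct from Cirbp and Rbm3 and not a set of cold-induced genes, were listed beside them. Of the 6 measured, 3 lay above and 3 below 0, and Lin28a was higher without overlap, where 10.4% of all genes were. Ybx1, a general mRNA-binding protein, read 10470, 9483 and 10014 in mutant-labelled arrays, against 10357, 10306 and 9707 in wild type, and was picked out once its values were known. Lin28a (1.70, adjusted p = 0.129), with a mean signal of 57.8 in mutant-labelled arrays and 5.57 in wild type, and Carhsp1 (0.21, adjusted p = 0.687) had the smallest p. Among the heat shock factors, Hsf4 gave -0.46 (adjusted p = 0.501) and the factor-binding protein Hsbp1 0.09 (adjusted p = 0.868).

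**Figure D4:**
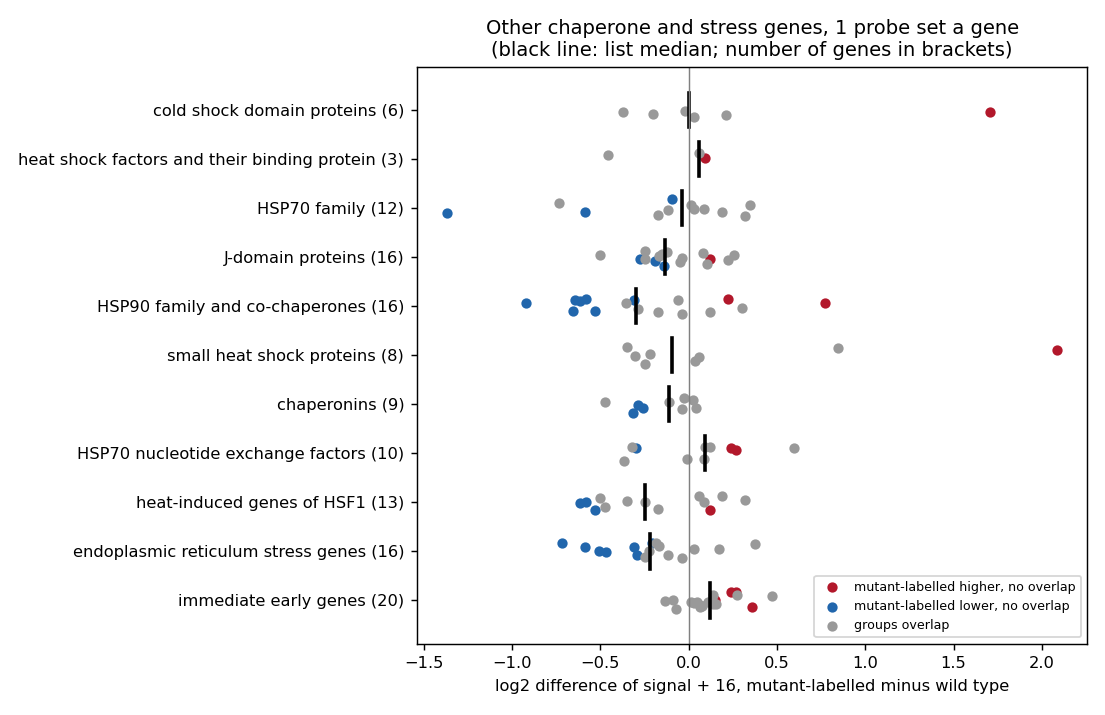
Log2 difference, mutant-labelled minus wild type, of each gene in the 11 lists (1 point a gene, 1 probe set each, red and blue where no array of one genotype overlapped the other), with the list median as a black line. The HSP90 list has the lowest median, at -0.30, and no gene passed the adjusted test.

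Immediate early genes, which many stimuli raise within minutes, and genes of the endoplasmic reticulum stress response were listed as well, with Atf3 in both lists, and none passed the adjusted test. Of 20 immediate early genes 17 lay above 0, with a median of 0.12, where 9232 of all 18193 genes lay above 0, and 4 were higher without overlap, where 10.4% of all genes were. Ier3 (0.36, adjusted p = 0.487) and Ier2 (0.27, adjusted p = 0.580) had the smallest p. Fos, chosen after its values were seen, read 13071, 13074 and 12985 in mutant-labelled arrays, against 11697, 11960 and 11650 in wild type. Of 16 endoplasmic reticulum stress genes 13 lay below 0 (median -0.22), where 49.3% of all genes did, and 7 were lower without overlap, where 10% of all genes were, led by Sdf2l1 (-0.72, adjusted p = 0.190) and Creld2 (-0.59, adjusted p = 0.270).

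Genes next to the members on the chromosome were compared as well, a step added after the members' values were seen. The nearest measured protein-coding gene on each side of the 9 genes, 18 in all, had a median log2 difference of 0.06. None passed the limma adjusted threshold, with 2 higher and 1 lower at an unadjusted p under 0.05, shares of 7.04% and 6.48% among all genes. Beside Cirbp on chromosome 10, Midn gave 0.22 (adjusted p = 0.816) and Fam174c -0.96 (adjusted p = 0.0849). Beside Hsph1 on chromosome 5, Wdr95 gave -0.52 (adjusted p = 0.718) and B3glct 0.39 (adjusted p = 0.499).

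Markers of cell types moved with the genotype beside these genes, and in sorted bulk cells fewer cells of a type and less RNA per cell cannot be told apart. All 10 mesenchymal markers, with Col1a2, Col3a1 and Col1a1 the brightest, lay above 0 (median 0.78), and their summed signal ranged from 41233 to 43672 in mutant-labelled arrays and from 17871 to 33664 in wild type. All 19 measured proliferation genes lay below 0 (median -0.81), with Cdt1 called lower (limma adjusted p = 0.0493) and Pcna, Mcm6 and Mcm7 the brightest, and their summed signal ranged from 14992 to 17845 in mutant-labelled arrays and from 22847 to 31317 in wild type. Of 12 blood cell markers, with Laptm5, S100a9 and Coro1a the brightest, 3 were higher and 4 lower without overlap (10.4% and 10% of all genes), and the B cell gene Ms4a1 (-3.40, limma adjusted p = 0.00690) and the natural killer cell gene Ncr1 (-3.23, limma adjusted p = 0.0180) were called lower. The 4 lower ones were Ms4a1, Ncr1, Cd79a (-2.34, limma adjusted p = 0.0559) and Cd3e (-0.53, limma adjusted p = 0.395). The 3 higher ones were S100a8, S100a9 and Itgam, and none of these 3 was called. S100a8 read 12455, 15484 and 7345 in mutant-labelled arrays, against 3415, 4888 and 4068 in wild type. S100a9 read 15014, 19193 and 10777 in mutant-labelled arrays, against 5997, 8070 and 6456 in wild type. Itgam was dimmer, with a mean of 219 in mutant-labelled arrays and 90.3 in wild type. The summed signal of the 12 markers ranged from 59197 to 85655 in mutant-labelled arrays and from 52088 to 73093 in wild type. Blood cell transcripts were therefore present despite the sort against CD45.

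Epithelial and endothelial markers were closer between the genotypes. The 8 epithelial markers, led by Sftpc, Scgb1a1 and Sftpb, summed to 69070 to 78708 in mutant-labelled arrays and 65758 to 70023 in wild type. They still leaned higher: 7 lay above 0 (median 0.12), where 9232 of all 18193 genes did. Without overlap 2 were higher, where 10.4% of all genes were, and 0 lower. Of the endothelial markers 3 lay above 0 and 3 below. The 6 endothelial markers, led by Tek, Cdh5 and Pecam1, summed to 13261 to 14838 in mutant-labelled arrays and 11164 to 17664 in wild type, despite the sort against CD31. No marker of any list was at 0 on any array. The part of these shifts in the values of Cirbp and the chaperones was not tested.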

How the data were processed

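The single table analysed holds 1 value per probe set and array. Per the submitters' processing notes it was made with Affymetrix Expression Console 1.1, and its deposited entries are linear-scale intensities, 1 per probe set. How probes were summarised or background removed is not given in the sources used here. Trimmed means were 500.002 on every array, so the arrays had been scaled to a common mean. Median signals were 97.4, 111.9 and 105.5 in mutant-labelled arrays, against 114.2, 112.2 and 112.5 in wild type. Every mutant-labelled median was thus below every wild-type one, and its part in the small differences was not tested. The number of arrays limits the precision.

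Of 45101 probe sets, 64 controls were left out. Values became log2(signal + 16) with no further scaling, and limma 3.58.1 in R 4.3.3 (lmFit, eBayes, no covariate, Benjamini-Hochberg over 45037 probe sets) compared the genotypes. All adjusted p values come from that fit. On simulated arrays with 200 changed probe sets, 75.4% of those changed by a log2 of 3 were recovered and 2.1 unchanged ones were called on average.

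The annotation gave 34945 probe sets 1 symbol. In gene-level counts the one with the highest mean log2 value stood for a gene. The members and lists were chosen with earlier results of these data known. Named were all members, of each list the called genes or else the 2 with the smallest p, of each marker list the called genes and the 3 brightest, and the 5 genes nearest to Cirbp in profile. The blood cell markers higher or lower without overlap were named too. Promoter sequences are RefSeq's (GRCm38.p6). Figures were drawn with matplotlib 3.10.9. Some genes of the lists are not reported here.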

Additional observations from a re-analysis of the deposited data

How the results depend on the processing

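Across the members, 299 log2 differences were recomputed under other settings, and 291 moved by less than 1 SD between replicates. The 8 that moved by more were all on heat-induced probe sets. Hspd1 went from -0.29 to -0.32 with quantile normalization. The rest came with median centring and became smaller in size, as for Hspd1 (-0.20) and the first Hsph1 probe set (-1.36). Part of the 299 could not move. A probe set keeps its difference by construction under the filter on level, the brightest probe set of each gene, the trended prior and the replicate block. The sign turned in 10, all of them on probe sets that overlapped between the genotypes. The difference between the cold and heat indices was 1.87 among probe sets above the median level and 1.80 with the brightest probe set of each gene, and ranged from 1.56 to 1.70 when 1 array was left out. Log2 differences of Cirbp stayed between 1.73 and 1.95, and those of the first Hsph1 probe set between -1.49 and -1.36.

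Calls depended far more on the setting. Over all probe sets, 84 were called higher and 98 lower, and the counts were 10 and 12 with an offset of 1, 171 and 222 among probe sets above the median level, and 276 and 299 with a trended, robust prior. Of the members, 1 higher and 2 lower became 0 and 0 with an offset of 1, and 2 and 6 with the trended prior, under which 2 genes of the lists, Hspa12a and St13, were called lower. When 1 array was left out, the counts over all probe sets ranged from 0 to 29 higher and from 0 to 37 lower, and those of the members from 0 to 1 higher and 0 lower. Cirbp kept its call without mutant replicate 3 and lost it without each of the other 5 arrays, and the first Hsph1 probe set and Stip1 lost theirs without any 1 of the 6.

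With the replicate number as a block, 0 probe sets were called higher and 0 lower, members included, where the differences themselves are unchanged by construction. The labels do not say that the numbers pair the mice. Deviations of same-numbered arrays correlated at 0.06, 0.05 and 0.03, and each array correlated best with its own number, a hint from the data and not the design. The cause of the lost calls was not tested.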
